A study of Rattus norvegicus with 6 samples.

Results

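The genes described here are the 7 subunits of respiratory complex I that the mitochondrial genome encodes: ND1, ND2, ND3, ND4, ND4L, ND5 and ND6. They were chosen by symbol from the 37183 symbols of the deposited table, with their differences in these libraries already known, so their values are a description and carry no test. All 7 symbols were found, and each had a value in all 6 libraries.

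Complex I, NADH dehydrogenase, takes electrons from NADH, passes them to ubiquinone and pumps protons across the inner mitochondrial membrane. Its membrane arm is built around the 7 ND proteins, while the matrix arm and the accessory subunits come from nuclear genes, so the enzyme needs products of both genomes. Mitochondrial DNA is transcribed as long precursors that are cut into single messages, mostly at the tRNAs between them. ND6 lies on the other strand from the remaining 6 and is cut from another precursor, and ND4L and ND4 share a message with overlapping reading frames. In the brain, astrocytes and neurons differ in how much of their energy they draw from this chain.

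The study measured RNA from primary rat hippocampal astrocyte cultures and hippocampal neuron cultures exposed to insulin, by stranded sequencing of total RNA after rRNA depletion. For each culture type there was a control at 0 h (saline in the titles, untreated in the characteristics) and an exposure to 200 nM insulin sampled at 6 h and at 12 h. Astrocytes had been moved 4 h before treatment to DMEM/F12 with 2% FBS and 5 mM glucose, and neurons to serum-free Neurobasal with an insulin-free 1% B27 supplement. Each of the 6 groups held 1 library, so no value has a replicate error, no p-value is given, and neighbours in an order of levels cannot be set against a spread. Insulin exposure and the additional hours in the changed medium cannot be told apart, because the controls were taken at 0 h. How many animals or wells were pooled is not given in the sources used here.

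Values are FPKM (fragments counted on a gene, divided by its length and by the library total), deposited as log2 and quantile-normalised across the 6 libraries, and sequencing depth is unknown. Between 22891 and 25528 symbols had a value per library, fewest in the astrocyte control, and the median difference of all symbols was 0.09 at 6 h and 0.10 at 12 h in the astrocyte cultures and 0.14 at both times in the neuron cultures. Astrocyte markers summed to between 55.3 and 62.6 FPKM in the libraries labelled astrocyte and to between 349 and 388 FPKM in those labelled neuron. Pericyte and smooth muscle markers summed to between 425 and 504 FPKM in the former and 4.52 to 10.6 FPKM in the latter, and 1 of 11 astrocyte markers was higher in the astrocyte control than in the neuron control. Neuron markers summed to between 5.14 and 6.80 FPKM and between 59.4 and 68.7 FPKM, with the excitatory marker Slc17a7 blank in the libraries labelled astrocyte and at 0.00378 FPKM or less in those labelled neuron. Oligodendrocyte markers summed to between 108 and 115 FPKM in the libraries labelled neuron, more than the neuron markers did, and to between 2.24 and 2.33 FPKM in those labelled astrocyte. Fibroblast markers summed to between 2.28 and 2.47 FPKM in the former and between 66.5 and 86.0 FPKM in the latter. The cultures are therefore called astrocyte-labelled and neuron-labelled. In bulk RNA, fewer cells of a type, fewer mitochondrial genomes per cell and less RNA per genome cannot be told apart, and the part that cell makeup had in the results was not tested.

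All 7 ND transcripts were at least 2-fold lower in the astrocyte-labelled control than in the neuron-labelled control, where 21.9% of all 7146 symbols compared were lower by that size. ND2, one of the antiporter-like subunits of the proton-pumping arm, was at 47.5 and 374 FPKM and showed the largest gap, 7.88-fold. ND1, which sits where the arms meet and lines the ubiquinone channel, was at 52.7 and 391 FPKM, a gap of 7.42-fold. ND4, another antiporter-like subunit, was at 58.9 and 383 FPKM, a gap of 6.51-fold. The gap was smaller for the remaining 4. ND4L, a small subunit next to ND6 in the membrane arm, was at 44.4 and 170 FPKM, 3.83-fold apart. ND5, the antiporter-like subunit at the far end of the arm, was at 108 and 292 FPKM, 2.71-fold apart. ND6, at 42.1 and 104 FPKM, was 2.48-fold apart. ND3, whose matrix-side loop takes part in the switch between the active and deactive states of the enzyme, was at 416 and 931 FPKM, 2.24-fold apart. The log2 differences, astrocyte minus neuron, thus ran from -2.98 to -1.16 with a median of -1.94, against a median of -0.10 over all symbols.

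The order of the levels also differed between the controls. In all 3 astrocyte-labelled libraries it ran ND3, ND5, ND4, ND1, ND2, ND4L, ND6 from the highest to the lowest. In the neuron-labelled control it ran ND3, ND1, ND4, ND2, ND5, ND4L, ND6. ND3 was the highest and ND6 the lowest in all 6 libraries. Leaving ND3 aside, the remaining transcripts of a library lay within 1.08 to 1.36 log2 units of each other in the astrocyte-labelled cultures and within 1.56 to 1.91 in the neuron-labelled cultures. ND1, ND2 and ND4 stayed close together throughout: ND1 minus ND2 was between -0.03 and 0.21, and ND1 minus ND4 between -0.17 and 0.09 in log2 FPKM.

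**Figure D1:**
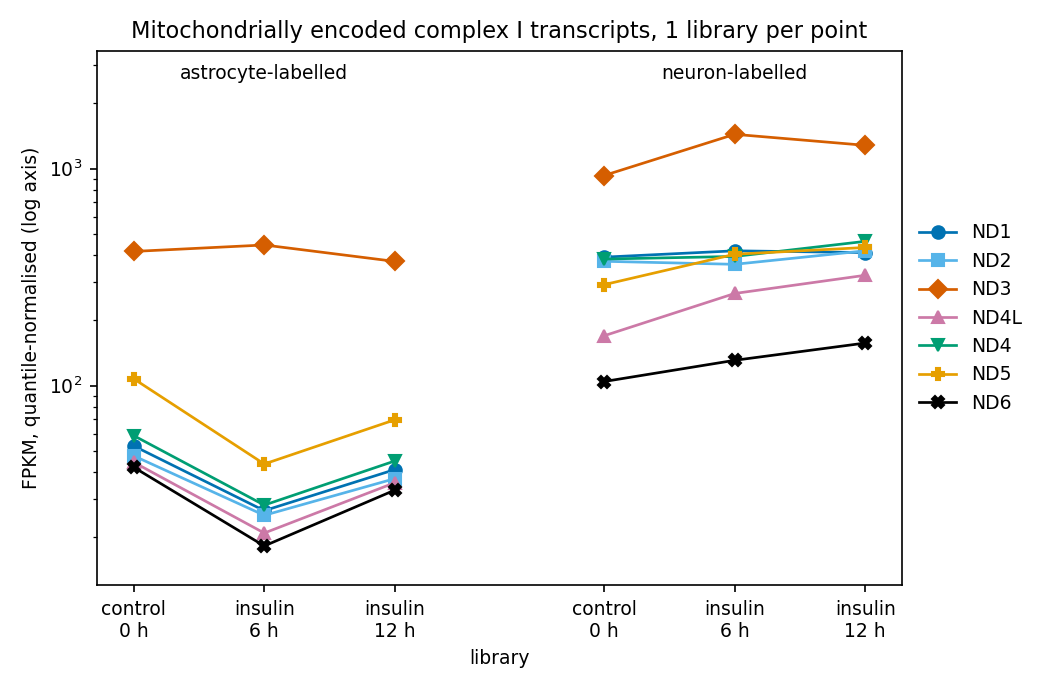
FPKM (log axis) of the 7 ND transcripts in each of the 6 libraries, 1 point per library, with lines joining the libraries of a culture type. In the astrocyte-labelled cultures 6 transcripts dip at 6 h while ND3 stays between 374 and 445 FPKM. In the neuron-labelled cultures all transcripts but ND2 have their lowest value in the control.

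After 6 h of insulin, 6 of the 7 ND transcripts were lower in the astrocyte-labelled culture than in its control, and ND3 was not. The fall reached 2-fold for 4 of 7, against 0.886% of the 6206 symbols compared, and 1.5-fold (0.58 on the log2 scale) for 6 of 7, against 2.96%. Among symbols at 16 FPKM or more in either library, a level chosen after seeing the data because all members lie above it, 1.56% were at least 2-fold lower. ND5 went from 108 FPKM in the control to 43.5 at 6 h and 69.6 at 12 h, and fell by 1.31 on the log2 scale at 6 h. ND6, the transcript of the other strand, was at 42.1, 18.2 and 33.0 FPKM, and fell by 1.21. ND4L was at 44.4, 20.9 and 35.7 FPKM, and fell by 1.09. These 3 were lowest at 6 h and between the other libraries at 12 h, and so were the 3 that follow. ND4 was at 58.9, 28.1 and 45.0 FPKM, and fell by 1.07 at 6 h. ND1 was at 52.7, 26.5 and 41.0 FPKM, a difference of -0.99 at 6 h, short of 2-fold on the deposited scale and past it, at -1.08, when centred on symbols at 5 FPKM or more. ND2 was at 47.5, 25.2 and 37.3 FPKM, a difference of -0.91.

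ND3 stood apart from the other members. It was at 416, 445 and 374 FPKM, a difference of 0.10 at 6 h, near the median of all symbols (0.09). It turns to -0.18 relative to the median level of the 35 nuclear-encoded complex I subunits found, which was 0.28 higher at 6 h. The median of the differences of the 29 that reached 1 FPKM was smaller, at 0.14. The median over the 7 was -1.07 at 6 h. In ranks, which the quantile step uses in place of amounts, ND5 went from 128th to 292nd and ND6 from 289th to 608th among all symbols of the library, while ND3 was 32nd and 30th.

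At 12 h no ND transcript of the astrocyte-labelled culture was 2-fold from its control, where 0.916% of 6221 symbols were lower by that size. ND5 alone was 1.5-fold lower, with a difference of -0.63, against 2.35% of all symbols. All 7 were nevertheless below 0, from -0.63 to -0.15, with a median of -0.35, and all 7 were below the median of all symbols (0.10); for ND3 (-0.15) the sign turns when it is set against the 6 other mitochondrially encoded proteins. Set directly against the 6 h library, the 12 h library was 1.5-fold higher for 5 of 7, against 1.37% of 6260 symbols, and 2-fold higher for 0 of 7, against 0.256%. These 5 were ND6 (0.86), ND4L (0.77), ND5 (0.68), ND4 (0.68) and ND1 (0.63). ND2 differed by 0.56 and ND3 by -0.25. Between 6 h and 12 h, the 6 transcripts that had been lower regained from 51.9% (ND5) to 71.1% (ND4L) of their log2 difference from the control. The 6 h and 12 h differences share the control library, so their common sign is not independent. The comparison of 12 h with 6 h does not use the control, but it shares the 6 h library with the 6 h difference. The lower values at 6 h and the share regained by 12 h are therefore not independent either.

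**Figure D2:**
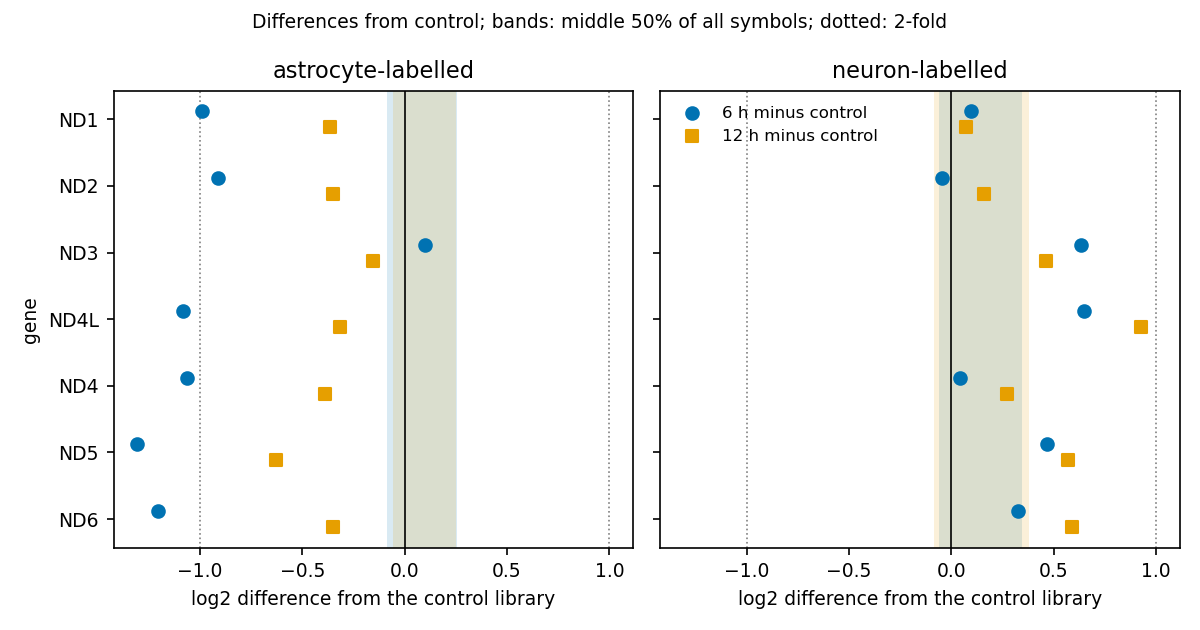
Log2 difference of each ND transcript from the control library of its culture at 6 h (circles) and 12 h (squares), with bands for the middle 50% of all symbols compared and dotted lines at 2-fold. In the astrocyte-labelled panel 6 genes lie left of the bands at both times; in the neuron-labelled panel ND4L lies farthest right, at 0.93 at 12 h.

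In the neuron-labelled cultures the same transcripts were level with or above their control. No member reached 2-fold at 6 h, where 1.60% of 6610 symbols were higher by that size, or at 12 h, where 2.39% of 6641 were. At 1.5-fold, 2 of 7 were higher at 6 h (ND3 and ND4L), against 8.28% of all symbols, and 2 of 7 at 12 h (ND4L and ND6), against 10.7%. ND4L went from 170 FPKM to 266 at 6 h and 323 at 12 h, with log2 differences of 0.65 and 0.93. ND6 was at 104, 131 and 157 FPKM, with differences of 0.33 and 0.59. ND5 was at 292, 403 and 434 FPKM, with differences of 0.47 and 0.57. For these 3, and for ND4, the control was the lowest library and 12 h the highest. ND3 was at 931, 1441 and 1282 FPKM, with differences of 0.63 and 0.46 and its highest value at 6 h.

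The 3 transcripts with the widest gap between the control cultures, ND1, ND2 and ND4, differed least from control in the neuron-labelled ones. The neuron-labelled control library enters both the gap and these differences, so the gap and the differences are not independent. ND1 was at 391, 418 and 411 FPKM, with differences of 0.10 and 0.07 that both fall below 0 when centred on symbols at 5 FPKM or more. ND2 was at 374, 363 and 419 FPKM, with differences of -0.05 and 0.16. ND4 was at 383, 394 and 463 FPKM, with differences of 0.04, which turns to -0.09 when so centred, and 0.27. The medians over the 7 were 0.33 at 6 h and 0.46 at 12 h, against 0.14 for all symbols at both times, with 4 and 6 of 7 above that median. Relative to the 6 other mitochondrially encoded proteins, however, the median at 6 h turned to -0.16, with ND6 at -0.16 and ND5 at -0.01, and at 12 h ND1 (-0.36), ND2 (-0.27) and ND4 (-0.16) turned below 0. The 12 h library was within 0.28 log2 units of the 6 h library for all 7, and 0 of 7 were 2-fold higher, against 0.555% of 6662 symbols.

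The gap between the culture types was wider in the insulin libraries than in the controls for every ND transcript. At 6 h it was 15.8-fold for ND1, 14.4-fold for ND2, 14.0-fold for ND4 and 12.7-fold for ND4L. It was 9.27-fold for ND5, 7.18-fold for ND6 and 3.24-fold for ND3, which had the smallest gap at each time. At 12 h the gaps lay between 3.43-fold (ND3) and 11.2-fold (ND2). For the 6 other mitochondrially encoded proteins the ratio of neuron-labelled to astrocyte-labelled level was also higher at both insulin times than in the controls. At 6 h it lay between 3.29 (COX1) and 10.9 (ATP8), so the widening was not particular to the ND genes. Taking the astrocyte difference minus the neuron difference, ND5 gave -1.77 at 6 h and -1.20 at 12 h, and ND4L gave -1.73 and -1.24. ND2 gave -0.87 and -0.51, and ND3 -0.53 and -0.62. With 1 library per group these differences between culture types were not tested.

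The 6 other proteins of the mitochondrial genome are subunits of cytochrome oxidase (COX1, COX2, COX3), ATP synthase (ATP6, ATP8) and the bc1 complex (CYTB). In the astrocyte-labelled culture at 6 h they were also all lower, from -1.16 (ATP8) to -0.44 (COX1), with a median of -0.88. At 12 h their median was -0.41, with COX1 alone above its control, by 0.56. In the neuron-labelled cultures all 6 were above their control at both times, with medians of 0.64 and 0.44 against 0.33 and 0.46 for the ND transcripts, and COX1 rose by 1.71 and 1.13. Values above control in the neuron-labelled cultures were thus shared by the other mitochondrial messages. Relative to the median level of these 6 in the same library, no ND transcript was 2-fold lower at 6 h, and ND3 was 0.93 higher on the log2 scale. The control gap changed as well: relative to these 6, ND1 (-1.26), ND2 (-1.34) and ND4 (-1.07) were still 2-fold lower in the astrocyte-labelled control, while ND3 (0.47), ND6 (0.32) and ND5 (0.20) turned to above 0. The lower level of ND1, ND2 and ND4 in the astrocyte-labelled control was thus larger than that of the other mitochondrial messages. ND1 minus CYTB was between -1.61 and -1.57 in the 3 astrocyte-labelled libraries and between -0.75 and -0.64 in the 3 neuron-labelled libraries. ND1 minus ND5 was between -1.03 and -0.71 in the astrocyte-labelled libraries and between -0.08 and 0.42 in the neuron-labelled ones. For ND5 minus CYTB the ranges overlapped, at -0.89 to -0.58 and -1.06 to -0.67. The 3 libraries of a culture type differ in treatment and are not replicates.

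Pairs of neighbouring genes were also set against each other. ND4L and ND4, which share a message, did not keep a fixed ratio in the deposited values. ND4 minus ND4L was between 0.33 and 0.43 in the astrocyte-labelled libraries. It was 1.18 in the neuron-labelled control, and 0.57 and 0.52 in the neuron-labelled insulin libraries. How reads in the overlap of the 2 genes were counted is not given in the sources used here. The ratio is therefore not read as a property of the message. ND5 and ND6, which lie next to each other on opposite strands, had a difference of 1.08 to 1.62 in log2 FPKM in all 6 libraries. Whether the counting used strand is not given in the sources used here, so reads of ND6 and of the opposite strand may not be separated, and nuclear copies of mitochondrial sequence can share reads with all 7. ND3 took 54.1% of the summed FPKM of the 7 in the astrocyte-labelled control, 73.3% at 6 h and 58.8% at 12 h, and between 35.2% and 42.2% in the neuron-labelled libraries. Among the 13 mitochondrially encoded proteins the 7 ND transcripts together held 14.5%, 16.9% and 10.6% of the summed FPKM at 0, 6 and 12 h of the astrocyte-labelled series. Their shares in the neuron-labelled libraries were 27.3%, 19.6% and 23.0%. COX1 alone held 49.8%, 54.1% and 65.1% in the former and 20.3%, 36.8% and 28.5% in the latter. Without ND3, the share of the remaining ND transcripts was 6.64%, 4.52% and 4.35% in the astrocyte-labelled libraries and 17.7%, 11.3% and 14.6% in the neuron-labelled ones.

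**Figure D3:**
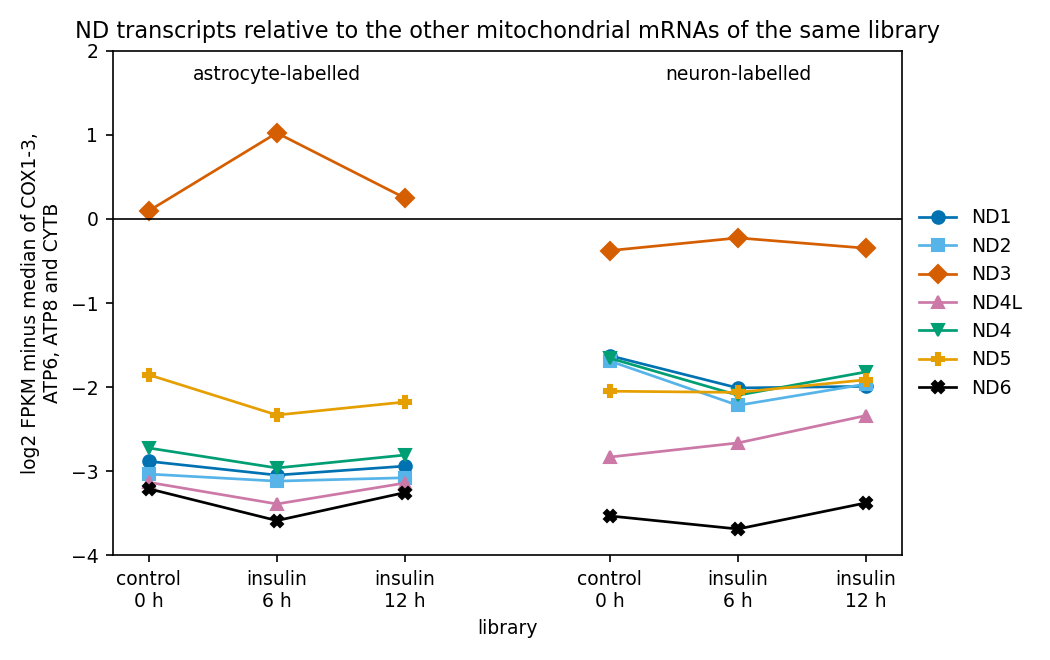
Log2 FPKM of each ND transcript minus the median of COX1, COX2, COX3, ATP6, ATP8 and CYTB in the same library, 1 point per library. ND1, ND2 and ND4 lie between -3.12 and -2.72 in the astrocyte-labelled libraries and between -2.22 and -1.63 in the neuron-labelled libraries, and ND3 reaches 1.02 in the astrocyte-labelled library at 6 h.

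The nuclear genes of the same enzyme did not move with the ND transcripts after insulin. Of 37 listed core and accessory subunits 35 were found; 29 reached 1 FPKM in the astrocyte-labelled comparisons and 31 in the neuron-labelled ones. None was 2-fold from its control in either culture at either time. Of all symbols, only 0.886% and 0.916% were 2-fold lower in the astrocyte-labelled comparisons at 6 h and 12 h. In the neuron-labelled ones 1.60% and 2.39% were 2-fold higher. A count of 0 is near these shares and is not particular to the nuclear subunits. In the astrocyte-labelled culture at 6 h their median was 0.14, against 0.09 for all symbols, and 26 of 29 were above 0. Above the all-symbol median were 4 of 6 core and 15 of 23 accessory subunits. The nuclear values ran from -0.20 (Ndufs6) to 0.53 (Ndufab1), and 6 of the 7 ND transcripts lay below all 29. At 12 h the nuclear median was 0.08, against 0.10 for all symbols, and again 6 of the 7 ND transcripts lay below all 29. In the neuron-labelled cultures the nuclear medians were 0.10 and 0.09, against 0.14 for all symbols at both times. There, 3 and 4 of the 7 ND transcripts lay above all 31. The highest nuclear values there were 0.44 and 0.43, not far above the upper quartiles of all symbols, 0.34 and 0.38. In the astrocyte-labelled culture the lowest nuclear values were -0.20 at 6 h and -0.18 at 12 h. These were not far below the lower quartiles of all symbols, -0.09 and -0.06. The share of all symbols outside the range of the nuclear subunits was not computed for either culture. Between the controls the nuclear subunits were lower in the astrocyte-labelled library too, with a median of -0.57, against -0.10 for all symbols, and 29 of 31 below 0. Only 4 of 31 were 2-fold lower, a smaller share than the 21.9% of all 7146 symbols. These 4 subunits were Ndufa8 (1.36 and 3.08 FPKM), Ndufb11 (8.26 and 16.6 FPKM), Ndufs7 (1.40 and 2.93 FPKM), which carries an iron-sulphur cluster, and Ndufv1 (6.33 and 13.8 FPKM), which binds NADH. The median ND transcript was 4.66 log2 units above the median nuclear subunit in the astrocyte-labelled control, 3.39 at 6 h and 4.12 at 12 h. In the neuron-labelled libraries it was between 6.92 and 7.07 units above.

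**Figure D4:**
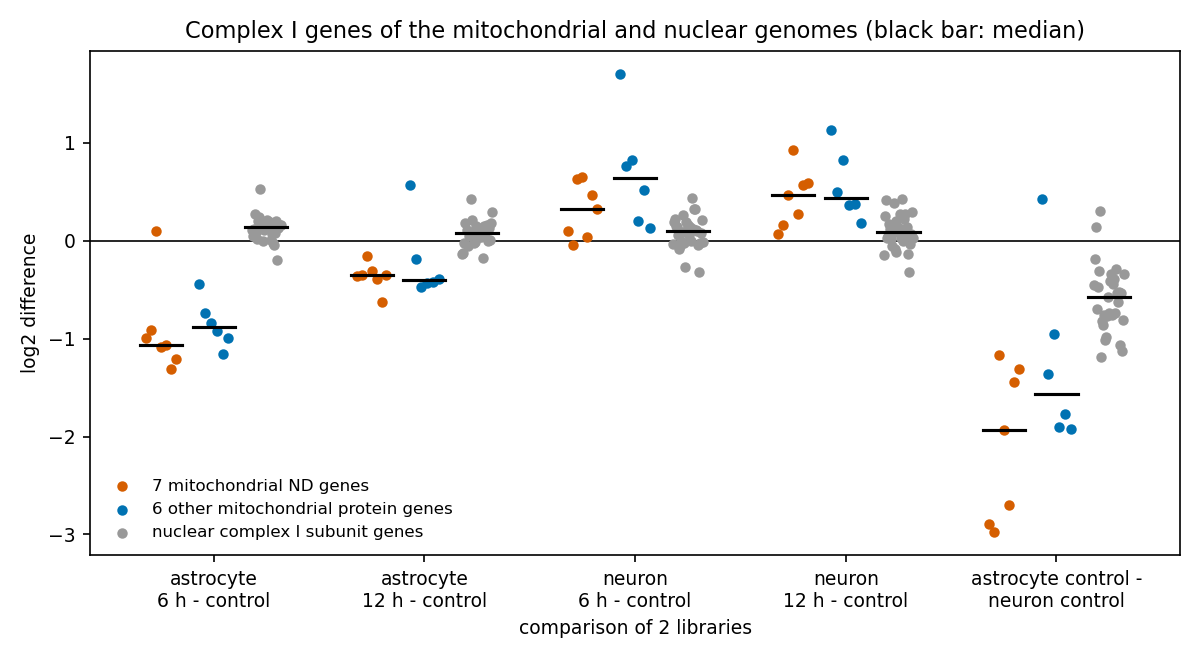
Log2 difference between 2 libraries for the 7 ND transcripts, the 6 other mitochondrially encoded proteins and the nuclear-encoded complex I subunits at 1 FPKM or more in either library, with the median of each group as a black bar. In the astrocyte-labelled comparisons with control 6 ND transcripts lie below all 29 nuclear subunits. The share of all symbols below that range was not computed.

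Genes that assemble complex I, and those that transcribe mitochondrial DNA or process its RNA, were mostly expressed too low to enter a comparison. Of 14 assembly factors found, 4 to 7 entered, and 1 reached 2-fold after insulin. This was Ndufaf4, at 2.71, 5.78 and 5.14 FPKM in the neuron-labelled control, 6 h and 12 h libraries. It had a rise of 1.09 at 6 h, where 1.60% of all 6610 symbols were 2-fold higher, and a difference of 0.92 at 12 h. In the astrocyte-labelled cultures it was at 2.74, 3.12 and 3.11 FPKM. Between the controls, where 21.9% of all 7146 symbols were 2-fold lower in the astrocyte-labelled one, Ndufaf7 was at 0.513 against 1.33 FPKM. Tmem186, at 3.48 against 6.53 FPKM, differed by -0.91.

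Of 14 transcription and replication genes found, 4 to 6 entered and none reached 2-fold in any comparison; their medians after insulin lay between 0.03 and 0.19, of which 3 (all but the astrocyte-labelled 6 h median) turned to between -0.09 and -0.07 when the quantile step was repeated over symbols with a value in all libraries. Tfam, which packages mitochondrial DNA and starts its transcription, was at 0.986, 1.15 and 1.01 FPKM in the astrocyte-labelled control, 6 h and 12 h libraries and at 1.38, 1.69 and 1.93 FPKM in the neuron-labelled ones. Polrmt, the mitochondrial RNA polymerase, was at 0.578, 0.960 and 0.813 FPKM in the astrocyte-labelled libraries, highest at 6 h, where the level stayed under the 1 FPKM needed to enter the comparison, and at 1.00, 0.818 and 1.01 FPKM in the neuron-labelled libraries. Peo1, the helicase Twinkle, stayed between 1.25 and 1.48 FPKM in the astrocyte-labelled libraries. Of 23 RNA processing and stability genes found, 9 to 11 entered and 0 reached 2-fold after insulin, with medians of 0.26 and 0.23 in the astrocyte-labelled cultures and 0.16 and 0.15 in the neuron-labelled ones. Between the controls, Rexo2, an exonuclease that clears short mitochondrial RNA fragments, was 2-fold higher in the astrocyte-labelled one (4.01 against 1.40 FPKM), and Trub2, a pseudouridine synthase, differed by -0.86. Of 12 biogenesis regulators, 6 or 7 entered and 0 reached 2-fold after insulin. Of all symbols, 0.886% and 0.916% were 2-fold lower after insulin in the astrocyte-labelled cultures, and 1.60% and 2.39% higher in the neuron-labelled ones. The counts of 0 after insulin in these lists are near those shares. Pprc1, a relative of the coactivator PGC-1alpha, was at 0.847, 1.32 and 1.42 FPKM in the neuron-labelled libraries, and Gabpa, a factor for nuclear respiratory genes, at 0.765, 1.27 and 1.24 FPKM. Tfe3 was lower in the astrocyte-labelled control, at 0.931 against 1.87 FPKM, where 21.9% of all 7146 symbols were 2-fold lower.

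Ribosomal RNA rows differed in the same libraries. The mitochondrial 12S rRNA (Rnr1) was at 2206, 1105 and 1645 FPKM in the astrocyte-labelled libraries, lowest at 6 h like the 6 ND transcripts, and the 16S rRNA (Rnr2) at 5614, 4785 and 4805 FPKM. In the neuron-labelled libraries Rnr1 was at 3921, 4306 and 5179 FPKM and Rnr2 at 5923, 15085 and 15107 FPKM. The cytosolic Rn18s was at 13.0, 3.24 and 5.62 FPKM and at 234, 10.7 and 4.65 FPKM in the astrocyte-labelled and neuron-labelled control, 6 h and 12 h libraries, and so fell after insulin in both. The 45S precursor Rn45s was at 11771, 7752 and 13032 FPKM and at 7795, 5176 and 6418 FPKM in the same order, with no 2-fold difference. Ribosomal RNA is the target of the depletion step, and whether depletion had a part in the ND values was not tested.

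Across the 6 libraries, the profile most like the mean of the ND members other than ND6 was searched among 2523 symbols with a value in every library and at least 5 FPKM in 1 of them. By the root mean square difference of profiles, each taken from its own mean, the nearest were Cd24 (0.13), ATP6 (0.15), ATP8 (0.17), CYTB (0.19) and Snn (0.27), with Pearson's r between 0.983 and 0.999. Nearest to ND6 were COX2 (0.21), COX3 (0.23), CYTB (0.23), ATP6 (0.24) and ATP8 (0.26). The 7 members were left out of both searches, so ND6 was not set against the other ND transcripts there. Cd24, a nuclear gene for a small cell surface glycoprotein, was at 7.17, 4.24 and 6.73 FPKM in the astrocyte-labelled libraries and at 31.2, 37.4 and 43.4 FPKM in the neuron-labelled ones. Of the members, ND4L lay nearest to the mean of the other 6 (0.22) and ND3 farthest from it (0.79). These likenesses rest largely on the gap between the culture types and describe 6 libraries only.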

How the data were processed

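RNA of rat astrocyte and neuron cultures was measured in 6 libraries, 1 per group, grouped by the sample titles; columns were matched by the description labels. The authors deposited log2 FPKM values, quantile-normalised; unit, log and quantile step come from the table's name, and quartiles agreed within 0.000465 across columns. Base 2 was settled from Rn45s, which as a natural log would exceed the unit's total of 1000000 fragments. Tools named in the submitters' processing notes are Partek 6.5 and bcl2fastq 2.17.1.14, with build Rnor 6.0; the aligner, annotation and strand setting were not given in the sources used here. Unused per-sample columns numbered 0.

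Of 2 repeated symbols the row of higher mean was used, and blanks were treated as no value. Differences were taken on the deposited scale with pandas 2.3.3 in Python 3.11.15, checked on simulated data. A symbol entered a comparison if neither library was blank and either reached 1 FPKM; a difference of 1 (2-fold) counted, and "rose" or "fell" is used only then. No test was possible. The 8 lists held 118 symbols, of which 7 were not found and 6 were matched through synonyms in the RefSeq table of GRCr8. All members were named. Of each other list, symbols past 2-fold and the 3 of largest difference were named. The likeness search left out the members, locus identifiers and small RNAs. Ndufab1, Ndufs6 and the ribosomal RNA rows were named after their values were seen. Members and lists were chosen with earlier results of these data known. Alternatives were another log scale, centring, references within the mitochondrial genome and complex I, a 1.5-fold size and no filter. Each reference was the median level of its genes in a library, unfiltered, and not the median of their differences. A repeated quantile step was added after seeing the data.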

Additional observations from a re-analysis of the deposited data

Results flagged for a closer look

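For 3 ND transcripts both insulin libraries lay below the control in the astrocyte-labelled culture and above it in the neuron-labelled culture, also after the median of all symbols was subtracted. Both insulin libraries of a culture are set against the same control library. The share of all symbols with this pattern was not computed, so the count cannot be called unusual. The astrocyte difference minus the neuron difference at 6 h was -1.77 for ND5, -1.73 for ND4L and -1.53 for ND6 on the log2 scale. By the same reading 4 of the 6 other mitochondrially encoded proteins showed this pattern, with -1.67 for COX3 and for ATP8, -1.50 for COX2 and -1.12 for ATP6, so it is not particular to the ND genes. The difference between the culture types was not tested, since each group held 1 library.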

How the results depend on the processing

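No paired analysis was possible because each group held 1 library. Of 420 recomputed values, 390 kept their sign where 2-fold had been reached, stayed on their side of 2-fold and moved by less than 1.5-fold; counts were held to 1.5 times. Relative to the 6 other mitochondrially encoded proteins, the count of 2-fold members in the astrocyte-labelled 6 h comparison became 0 and the median -0.24; between the controls they became 3 and -0.30, and ND3 (0.47), ND5 (0.20) and ND6 (0.32) changed sign. Relative to nuclear complex I subunits, 4 members remained past 2-fold between the controls. At 1.5-fold the counts were 1 (astrocyte-labelled, 12 h), 5 (12 h against 6 h), 2 and 2 (neuron-labelled, 6 h and 12 h). ND1 in the astrocyte-labelled 6 h comparison passed 2-fold when centred (-1.08) and when the quantile step was repeated (-1.05). Repeating the quantile step over 19471 symbols with a value in all libraries brought the median of all symbols to 0.0143 or less in size and moved no median past these limits; it turned below 0 the neuron-labelled medians of nuclear complex I core and accessory subunits (-0.04 to -0.01), assembly factors (-0.08 and -0.03) and transcription genes (-0.09 at each time), of RNA processing genes (-0.01) and biogenesis regulators (-0.07) at 6 h, and the astrocyte-labelled 12 h medians of accessory subunits (-0.03) and transcription genes (-0.07). Depth is unknown, so the precision of low genes such as Polrmt cannot be given.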
